A study of Homo sapiens with 2 samples.

Results

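MALAT1, NEAT1, MIR17HG, MIR23AHG and CCDC26 are long noncoding transcripts, and MIR17HG and MIR23AHG are the hosts of microRNA clusters. They were chosen by symbol and are 5 of the 57905 human gene lines in the count tables. All 5 were among the 10312 genes that passed the filter on low counts. The choice was made with results of the comparisons below already known, falls of the host transcripts among them. Their levels against DMSO are therefore given as a description, with no p-values.

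K562 cells, a human line established from chronic myeloid leukaemia and erythroid in character, were treated on 2 plates of 96 wells. Wells received 1 of 74 inhibitors or solvents aimed at transcription or chromatin, or DMSO, the vehicle, which filled 24 wells. RNA was taken after 6 h and measured by MAC-seq, in which each well gets a barcode during reverse transcription, each plate then becomes 1 pooled library and mRNA is read from its 3′ end. Duplicates were technical and doses are not given, so compounds cannot be matched for dose and the spread is that between wells of 1 experiment. Of the treatments, 68 had 2 wells, 2 had 4 and 4 had 6 (AZ5576, ActD, JQ1 and A485), with equal numbers on both plates. Compounds are called as in the deposited well annotation, and each name counts as 1 treatment. PCI34051 and PCI_34051 may be spellings of 1 compound, and so may RGF966 and RGFP966. All groups share the cell line, the medium and the time point.

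MALAT1 and NEAT1 are abundant nuclear RNAs from neighbouring genes. MALAT1 is a long-lived RNA of nuclear speckles, while NEAT1 is the scaffold on which paraspeckles assemble, and its long isoform and MALAT1 end in a triple helix instead of a conventional poly(A) tail. MIR17HG and MIR23AHG are primary transcripts that the nuclease DROSHA and its partner DGCR8 cut in the nucleus, so that the spliced or uncut RNA and the mature microRNAs can have different levels. CCDC26 is a long noncoding gene that lies beyond MYC and PVT1 and is expressed in myeloid leukaemia lines. The counts are per gene, so isoforms of NEAT1, and cut and uncut host RNA, cannot be told apart. RNAs without a conventional poly(A) tail may also be captured poorly by a method that reads mRNA from its 3′ end. How far the counts of MALAT1 and NEAT1 reflect such RNAs was not tested. Mature microRNAs were not measured: the gene lines of the MIR23A and MIR27A hairpins held 2 and 1 counts over all 192 wells.

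The mature microRNAs that both hosts encode are shown because they are the products for which these transcripts are known. Sequences are from RefSeq on GRCh38.p14, 5′ to 3′, with the seed (bases 2 to 8) in capitals. The 6 of MIR17HG lie on the plus strand between chr13:91350618-91350640 (miR-17-5p) and chr13:91351361-91351382 (miR-92a-3p), and the 3 of MIR23AHG on the minus strand between chr19:13836595-13836615 (miR-23a-3p) and chr19:13836289-13836310 (miR-24-3p).
hsa-miR-17-5p: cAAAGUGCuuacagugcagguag
hsa-miR-20a-5p: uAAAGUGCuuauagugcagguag
hsa-miR-18a-5p: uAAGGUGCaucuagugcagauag
hsa-miR-19a-3p: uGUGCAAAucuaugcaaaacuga
hsa-miR-19b-3p: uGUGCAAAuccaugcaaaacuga
hsa-miR-92a-3p: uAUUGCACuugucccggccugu
hsa-miR-23a-3p: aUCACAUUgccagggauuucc
hsa-miR-27a-3p: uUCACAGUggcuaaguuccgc
hsa-miR-24-3p: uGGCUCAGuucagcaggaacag
Within MIR17HG, miR-17-5p and miR-20a-5p share a seed, and so do miR-19a-3p and miR-19b-3p. The 3 seeds of MIR23AHG differ from each other and from all seeds of MIR17HG.

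Promoter windows of the host genes are shown because both transcripts were low under many of the same compounds. Each runs from 250 bases before to 50 after the RefSeq start on GRCh38.p14, at chr13:91347437-91347736 on the plus strand for MIR17HG and chr19:13842869-13843168 on the minus strand for MIR23AHG.
MIR17HG: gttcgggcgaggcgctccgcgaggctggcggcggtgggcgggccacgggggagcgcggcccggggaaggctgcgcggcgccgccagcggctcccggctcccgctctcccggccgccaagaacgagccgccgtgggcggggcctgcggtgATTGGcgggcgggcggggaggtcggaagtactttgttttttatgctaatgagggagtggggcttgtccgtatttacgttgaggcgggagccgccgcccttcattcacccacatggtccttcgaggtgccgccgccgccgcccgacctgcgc
MIR23AHG: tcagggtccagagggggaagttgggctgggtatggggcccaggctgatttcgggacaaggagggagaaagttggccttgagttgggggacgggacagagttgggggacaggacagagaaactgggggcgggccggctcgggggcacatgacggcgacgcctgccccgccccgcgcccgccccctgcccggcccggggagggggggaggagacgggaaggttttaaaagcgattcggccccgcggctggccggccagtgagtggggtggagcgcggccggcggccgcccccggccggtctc
Both are rich in G and C, at 73.0% for MIR17HG and 72.3% for MIR23AHG, against a median of 58.7% over all 35116 windows of the table. Capitals mark the match to CCAAT, read on the minus strand, in the MIR17HG window. Both strands were searched for the E-box CACGTG, found in 7.26% of all windows, and for the E2F element GCGGGAA, found in 6.55%. The search also covered the GATA element AGATAA (10.3%), the TATA box TATAAA (11.5%) and CCAAT (34.6%). None of the 5 was found in the MIR23AHG window, and CCAAT alone in that of MIR17HG.

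Human counts per well ran from 173553 to 1906446 (median 761911.5). The first plate column, read from well numbers in rows of 12, held 16 shallow wells (median 265248 counts, against 800352.5 elsewhere): 8 of DMSO, 4 of JQ1 and 4 of A485. The erythroid markers of K562 cells were present, with DMSO medians of 16950 CPM (counts scaled to the TMM-adjusted human total of a well) for HBG2, 7150 for HBG1 and 258 for GATA1, and BCR at 2.42. Among markers of other cell types, CD3E, MS4A1, ALB and COL1A1 had a median of 0 and EPCAM of 66.7 CPM. Fold changes compare a treatment with DMSO after TMM scaling, that is, relative to the other genes. Scaling to the ERCC RNAs, synthetic transcripts in the reverse transcription mix, shifted the median log2 fold change of all genes under the inhibitors of transcription. It was -1.05 with ERCC and -0.17 with TMM scaling under DRB, -0.87 and -0.14 under AZ5576, and between -0.84 and -1.03 with ERCC scaling under ActD, Triptolide, A159, THZ1, THZ531 and OTS964.

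Over the 74 comparisons with DMSO, a transcript was called where its adjusted p over all 10312 genes was below 0.05. This held for 2.55% of all gene and treatment pairs in the higher direction and 2.42% in the lower direction. MALAT1 was called higher in 4 treatments and lower in 1, NEAT1 higher in 6 and lower in 6, MIR17HG lower in 12, MIR23AHG higher in 1 and lower in 8, and CCDC26 higher in 19. MALAT1's counts were reached by 17.1% of all genes in the higher and 53.6% in the lower direction, and NEAT1's by 9.99% and 9.32%. Of all genes, 1.12% were called lower in at least as many treatments as MIR17HG, 4.78% in at least as many as MIR23AHG (51.1% reached its single call in the higher direction), and 0.582% were called higher in at least as many as CCDC26. All of these calls had the same sign on both plates and with ERCC scaling. Calls were common under the compounds in which 3 or more of the 5 transcripts were called. The shares of all genes called higher and lower were 19.2% and 28.1% under AZ5576, 18.6% and 24.7% under ActD, 12.8% and 15.7% under DRB, and 14.4% and 15.6% under okadaic acid. They were 9.32% and 11.7% under A159, 8.46% and 8.61% under OTS964, 5.44% and 6.37% under THZ1, and 4.73% and 2.71% under Phendione. The map of all treatments shows where they lie.

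**Figure D1:**
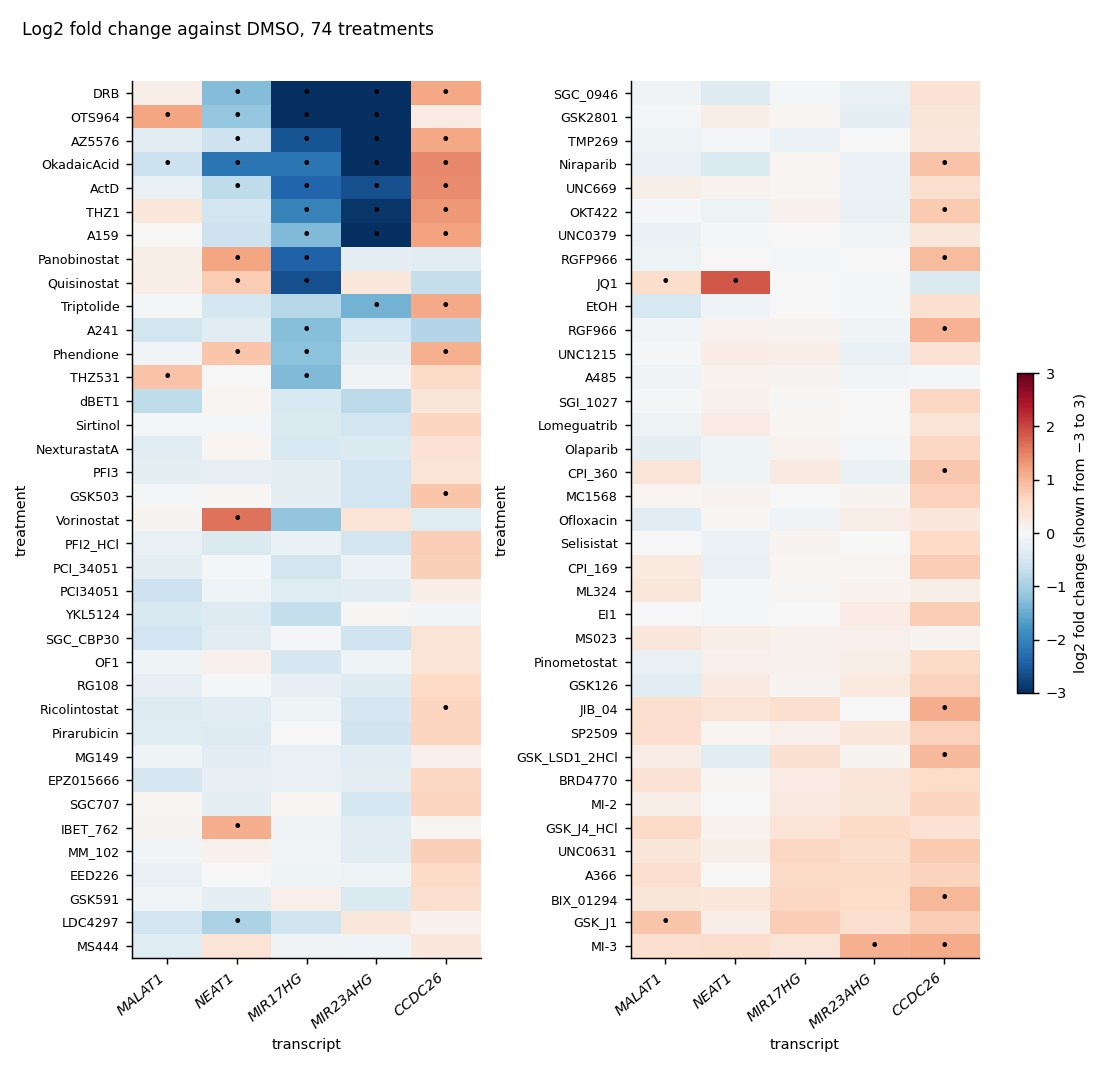
Log2 fold change against DMSO (TMM scaling) of the 5 transcripts (columns) in 74 treatments (rows, ordered by the mean of MIR17HG and MIR23AHG), with a dot where the edgeR adjusted p was below 0.05. MIR17HG and MIR23AHG are both blue in the top rows, NEAT1 is blue or red by treatment, and CCDC26 is red in most rows.

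MIR17HG, the host of the miR-17 family members above, was lowest under DRB, an inhibitor of elongation kinases, with 1.82 and 2.33 CPM. These are 1 count in each of 2 wells, against 703 counts in the 24 DMSO wells, where MIR17HG had 27.2 to 85.1 CPM (median 47.6). The ratio to DMSO was 0.0459 (95% interval 0.00555 to 0.166, counting error of reads only). OTS964, which inhibits CDK11, gave 8.37 and 1.92 CPM (log2 fold change -3.12, SE 0.75). AZ5576, a CDK9 inhibitor, gave 0 to 11.5 CPM over 6 wells (median 6.80), with a log2 fold change of -2.60 (SE 0.38). Actinomycin D (ActD), which binds DNA and stalls RNA polymerases, gave 2.01 to 11.9 CPM over 6 wells (median 9.68), at -2.37 (SE 0.34). None of these wells reached the lowest DMSO well.

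MIR17HG was also lower under inhibitors of histone deacetylases (HDAC): Quisinostat gave 6.58 and 7.61 CPM (-2.63, SE 0.47) and Panobinostat 10.8 and 4.81 CPM (-2.42, SE 0.49). Vorinostat, of the same class, gave 20.9 and 18.2 CPM (-1.19, SE 0.44) and missed the threshold, although both wells lay below all DMSO wells. Okadaic acid, an inhibitor of protein phosphatases, gave 9.24 and 10.1 CPM (-2.20, SE 0.41).

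The other 5 calls of MIR17HG were of smaller size. THZ1, a covalent inhibitor of CDK7, gave 13.2 and 9.06 CPM (-2.01, SE 0.64), and THZ531, an inhibitor of CDK12 and CDK13, 25.3 and 9.36 CPM (-1.33, SE 0.49). A159 gave 20.1 and 15.2 CPM, A241 12.2 and 25.1 CPM, and Phendione 11.8 and 26.5 CPM, with log2 fold changes of -1.33, -1.28 and -1.24. In all 12 called treatments and in Vorinostat every well was below every DMSO well, as in 1.3% of all gene and treatment pairs. The CDK7 inhibitors LDC4297 (25.6 and 34.0 CPM) and YKL5124 (29.5 and 24.9 CPM) were not called, at -0.60 (SE 0.28) and -0.72 (SE 0.25). Triptolide, which targets the XPB subunit of TFIIH, gave 18.2 and 32.2 CPM (-0.85, SE 0.41) and was not called either.

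MIR23AHG, the host of miR-23a, miR-27a and miR-24, had 16.3 to 75.3 CPM in DMSO wells (median 39.8). It was lowest under DRB too, with 3.64 and 0 CPM. These are 2 counts against 577 in the DMSO wells, a ratio of 0.0559 (95% interval 0.00676 to 0.203). OTS964 gave 4.185 and 3.84 CPM (-3.15, SE 0.91), A159 2.01 and 6.53 CPM (-3.09, SE 0.91) and okadaic acid 5.13 and 2.24 CPM (-3.24, SE 0.69). AZ5576 gave 0 to 6.62 CPM over 6 wells (median 6.48; -3.03, SE 0.53), and ActD 0 to 13.0 CPM (median 4.25; -2.64, SE 0.45). THZ1 gave 9.88 and 0 CPM, 3 counts in all, with a ratio of 0.129 (95% interval 0.0266 to 0.38). Triptolide gave 13.0 and 14.6 CPM (-1.41, SE 0.58). In these 8 treatments every well was below every DMSO well.

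MI-3, an inhibitor of the menin and MLL interaction, was the treatment in which MIR23AHG was called higher, with 69.6 and 85.1 CPM (1.06, SE 0.26). The next highest log2 fold changes, of A366, GSK_J4_HCl, BIX_01294 and UNC0631, were 0.52 to 0.57 and did not pass the threshold. All 5 of these treatments lay in plate columns 2 and 3, where no DMSO wells are, so compound and position cannot be told apart.

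The host transcripts were both called lower in 7 treatments (DRB, OTS964, AZ5576, ActD, okadaic acid, THZ1 and A159), which are 58.3% of the 12 calls of MIR17HG and 87.5% of the 8 of MIR23AHG. Of all genes, 6.37% (THZ1) to 28.1% (AZ5576) were called lower in these 7, and how many were lower in all of them was not counted. Under the 3 HDAC inhibitors above, MIR23AHG had 39.5 and 54.4 CPM under Quisinostat, 39.8 and 17.6 under Panobinostat and 28.7 and 70.2 under Vorinostat, all within the range of the DMSO wells, with log2 fold changes of 0.34, -0.28 and 0.42. It was also within that range under THZ531 (36.5 and 31.2 CPM) and A241 (24.3 and 27.0 CPM). That range includes first-column DMSO wells. The 54.4 CPM under Quisinostat and 70.2 under Vorinostat were above all DMSO wells outside the first column (16.3 to 43.3 CPM). The difference between the hosts was not tested. Over the 75 conditions (74 treatments and DMSO) their mean log2 CPM, with plate means removed, had a Pearson correlation of 0.773 (Spearman 0.632). This is a description: conditions share plates and pooled libraries and depth.

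**Figure D2:**
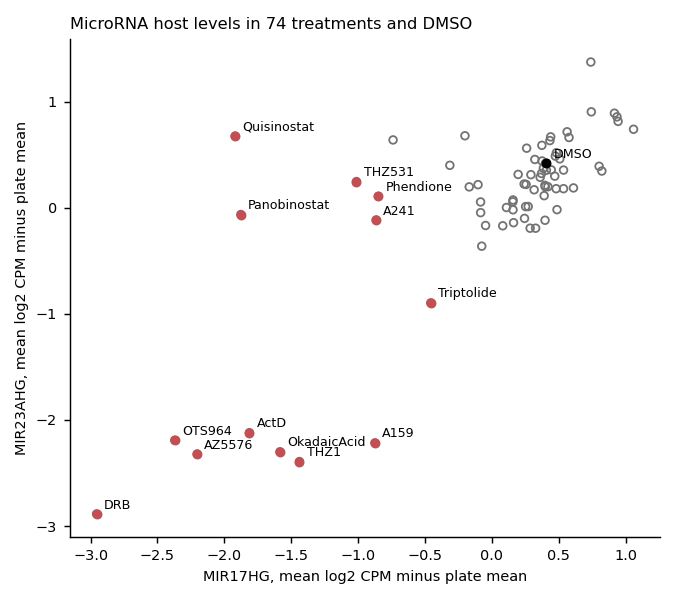
Mean level of MIR17HG (x) and MIR23AHG (y) in each of 74 treatments (circles) and DMSO (black), as log2 CPM minus the plate mean; red marks treatments in which either host was called lower. The 7 treatments called for both hosts lie low on both axes, while Quisinostat, Panobinostat, THZ531, Phendione and A241 are low on the x axis and near DMSO on the y axis.

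NEAT1 was higher under some compounds and lower under others. JQ1, which displaces BET bromodomain proteins from chromatin, gave 374 to 464 CPM in its 4 first-column wells and 237 and 232 CPM in the 2 others. The DMSO wells had 105.5 to 156 CPM in the first column and 64.7 to 104 CPM elsewhere. All 6 JQ1 wells were above all DMSO wells, and the log2 fold change was 1.86 (SE 0.105), or 1.46 without the first column. IBET_762, another BET inhibitor, gave 168, 190.1, 246 and 185 CPM (1.09, SE 0.12), again above all DMSO wells. dBET1, a degrader of BET proteins, gave 112 and 82.0 CPM (0.06, SE 0.17), which overlapped with DMSO.

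NEAT1 was also higher under 3 HDAC inhibitors. Vorinostat gave 248 and 328 CPM (1.62, SE 0.17), Panobinostat 185.5 and 239 CPM (1.18, SE 0.16) and Quisinostat 137 and 177 CPM (0.75, SE 0.16). Of their wells, the lower Quisinostat well overlapped with DMSO, but only with first-column DMSO wells (105.5 to 156 CPM). DMSO wells of other columns had 64.7 to 104 CPM. Quisinostat lay in column 4, which holds no DMSO wells. Phendione gave 106 and 229.8 CPM (0.83, SE 0.16), and its wells differed between plates, with 0.28 on plate 1 and 1.19 on plate 2. The HDAC inhibitors Ricolintostat, PCI34051, PCI_34051, RGF966, RGFP966, NexturastatA and MC1568 were not called, with log2 fold changes of -0.33 to 0.10. Some of these names may be spellings of the same compound.

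NEAT1 fell most under okadaic acid, with 23.6 and 16.8 CPM (-2.18, SE 0.33), below all DMSO wells. DRB gave 45.5 and 28.0 CPM (-1.29, SE 0.33), OTS964 39.8 and 44.2 CPM (-1.15, SE 0.32) and LDC4297 49.9 and 44.8 CPM (-0.96, SE 0.26). Under LDC4297 neither host transcript passed the threshold, at -0.60 for MIR17HG and 0.35 for MIR23AHG. ActD gave 36.2 to 80.4 CPM over 6 wells (median 50.9; -0.77, SE 0.17) and AZ5576 42.6 to 79.4 CPM (median 59.25; -0.63, SE 0.17), of which 5 and 3 wells were below all DMSO wells. With ERCC scaling 10 treatments were called lower, A159, THZ1, Triptolide and THZ531 being added at -1.40, -1.46, -1.35 and -0.86. The medians of all genes under these compounds were -0.89, -1.01, -0.925 and -0.947 with that scaling. Under THZ531 NEAT1 was thus not below the median gene, and the added calls include the shift of all genes. The share of all genes called with ERCC scaling is not given.

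MALAT1 had the narrowest range of log2 fold changes, -0.76 to 1.19. OTS964 gave 174 and 148 CPM (1.19, SE 0.19), both above all DMSO wells, which had 42.3 to 134 CPM (median 68.3). THZ531 gave 121 and 131 CPM (0.85, SE 0.24) and GSK_J1, an inhibitor of H3K27 demethylases, 128 and 120.1 CPM (0.84, SE 0.21), both within the DMSO range. The upper part of that range came from first-column wells (47.2 to 134 CPM), against 42.3 to 83.2 CPM in the other DMSO wells. Wells of both compounds were above all DMSO wells outside the first column. THZ531 lay in column 9. GSK_J1 lay in column 2, next to the first column. In the same 2 wells of OTS964, NEAT1, the neighbouring gene, fell. With ERCC scaling no treatment was called higher for MALAT1, and OTS964 stood at 0.42.

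The call of MALAT1 under JQ1 depended on well position. First-column wells of JQ1 had 113 to 176 CPM against 47.2 to 134 CPM in those of DMSO, while its other wells had 58.9 and 68.1 CPM against 42.3 to 83.2 CPM in DMSO. The log2 fold change was 0.53 (SE 0.15) with all wells and 0.02, not called, without the first column. Okadaic acid gave 40.04 and 50.4 CPM (-0.64, SE 0.24), and this call was lost without the first column, at -0.46. dBET1 had the lowest fold change, with 44.96 and 38.5 CPM (-0.76, SE 0.23), and did not pass the threshold.

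CCDC26 had 12.5 to 35.2 CPM in DMSO wells (median 24.3). Its 2 highest fold changes were those of okadaic acid, with 51.3 and 77.25 CPM (1.43, SE 0.18), and ActD, with 56.5 to 78.5 CPM over 6 wells (median 61.3; 1.43, SE 0.14). THZ1 gave 46.1 and 69.5 CPM (1.30, SE 0.27), A159 44.2 and 65.3 CPM (1.197, SE 0.23), and AZ5576 39.65 to 60.6 CPM over 6 wells (median 52.5; 1.17, SE 0.15). All wells of these compounds were above all DMSO wells. DRB gave 56.4 and 49.0 CPM (1.16, SE 0.23) and Triptolide 59.7 and 43.9 CPM (1.136, SE 0.27), also above all DMSO wells, as in 1.64% of all gene and treatment pairs. Of the 8 treatments in which MIR23AHG was called lower, 7 had CCDC26 called higher, and OTS964 did not, with 29.3 and 26.9 CPM (0.25, SE 0.30). Of all genes, 5.44% (THZ1) to 19.2% (AZ5576) were called higher under these 7, Triptolide aside. How many genes were called higher in all of them was not counted, and a relation between the 2 transcripts was not tested.

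The other 12 treatments in which CCDC26 was called higher stood at 0.65 to 1.12, from Ricolintostat to MI-3. Its log2 fold change was above 0 in 67 of 74 treatments, with a median of 0.61, including 0.47 for the solvent EtOH. Against the mean of all treatments, CCDC26 was called higher in 5 treatments (okadaic acid, ActD, A159, AZ5576 and DRB, at 0.60 to 0.88) and lower in 5. The lower ones were A241 (17.4 and 7.73 CPM), Quisinostat (10.97 and 17.4 CPM), JQ1, Panobinostat and A485, at -1.43, -1.28, -0.99, -0.90 and -0.59. Against DMSO none of these was called, although all 5 had log2 fold changes below 0 there too. With ERCC scaling 15 treatments were called higher, among them ActD at 0.49 and AZ5576 at 0.41, while DRB, Triptolide, A159 and THZ1 were not, at 0.26, 0.31, 0.44 and 0.43. For ERCC scaling and for the mean of all treatments, the share of all genes called is not given.

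**Figure D3:**
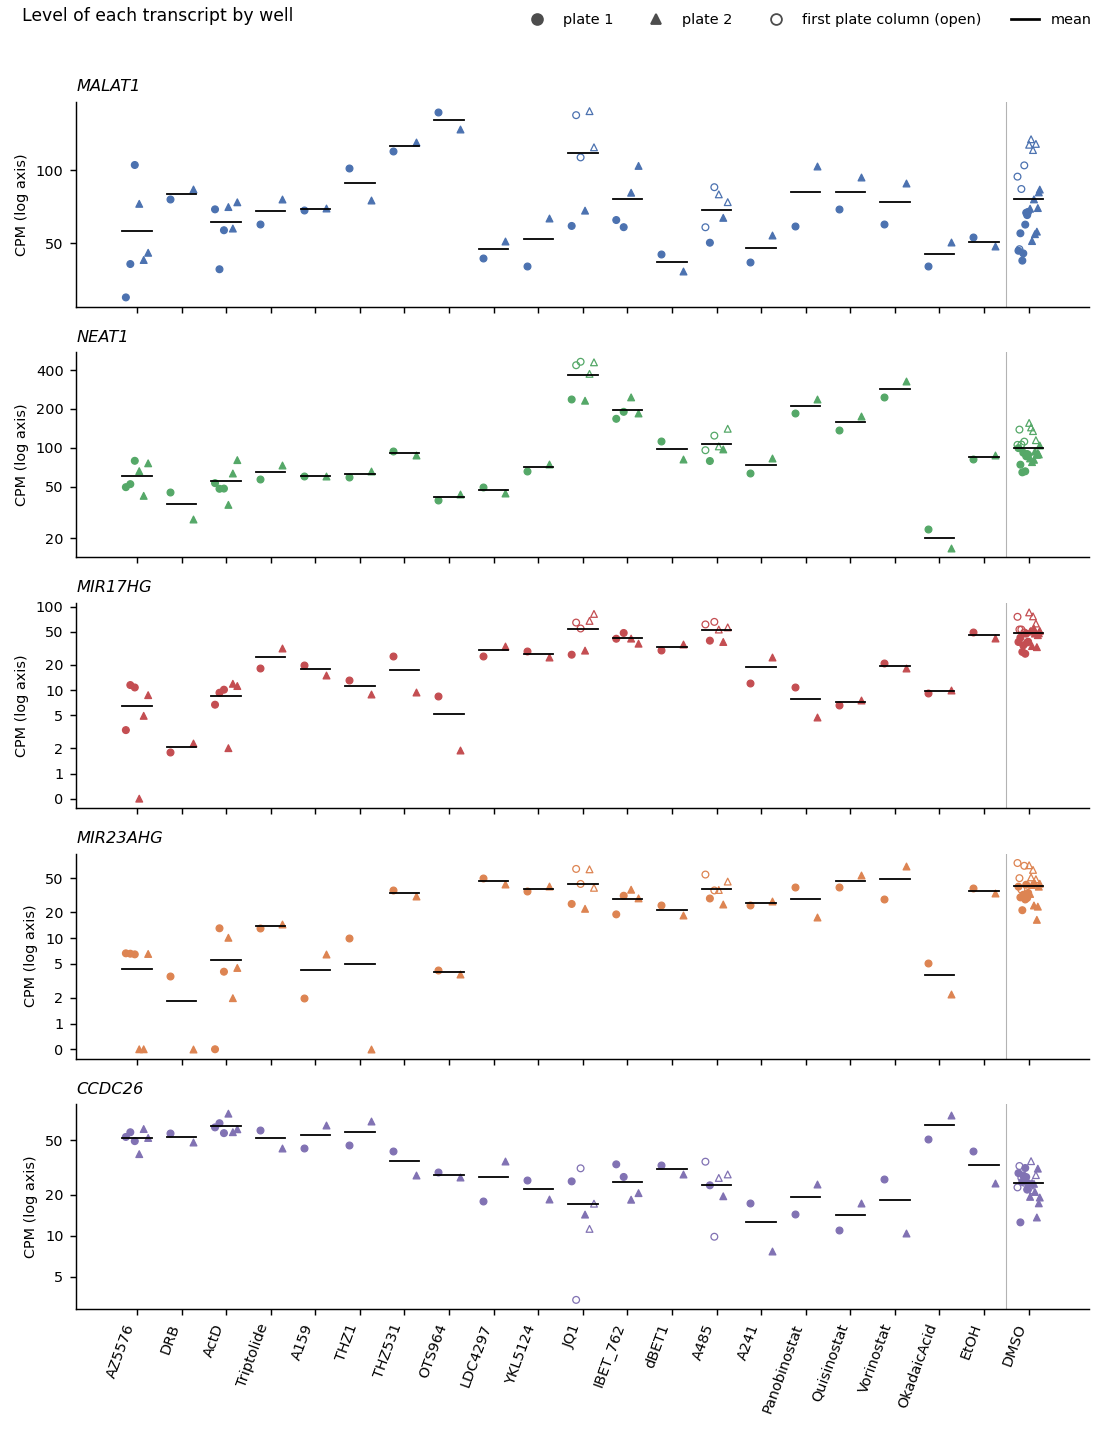
CPM of each transcript (log axis, wells without a count drawn at the tick labelled 0) in every well of 20 treatments and DMSO, by plate (circles and triangles), with wells of the first plate column open and a bar at the mean. MIR17HG and MIR23AHG drop together at the left, NEAT1 is highest under JQ1 and Vorinostat, and most open symbols of JQ1 and DMSO lie above the filled ones except for CCDC26.

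Treatments were ordered by level, and the wells of neighbours in that order were compared. Of 73 neighbouring pairs in that order, the wells overlapped in 72 for MALAT1, 70 for NEAT1, 73 for MIR17HG, 70 for MIR23AHG and 73 for CCDC26. Most treatments have few wells, and neighbours in a sorted order overlap readily. These counts therefore cannot tell a gradient from steps. Averaged over DMSO wells, NEAT1 stood at 99.1 ± 24.1 CPM, MALAT1 at 76.25 ± 28.4, MIR17HG at 48.35 ± 14.8, MIR23AHG at 41.1 ± 16 and CCDC26 at 24.2 ± 5.6 (SD, n = 24).

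A comparison on which the choice of transcripts did not rest is that of DMSO wells by position. First-column DMSO wells had 105 ± 29.6 CPM of MALAT1, against 61.8 ± 12.5 in the other DMSO wells (SD, n = 8 and 16; log2 difference 0.79, edgeR adjusted p = 5.5e-08). NEAT1 had 126 ± 19.3 against 85.5 ± 10.9 CPM (0.61, edgeR adjusted p = 2.12e-07), MIR17HG 63.2 ± 13.9 against 40.9 ± 8.42 CPM (0.66, 5.21e-05 by the same test) and MIR23AHG 58.2 ± 13.5 against 32.5 ± 8.55 CPM (0.84, 1.09e-05). CCDC26 had 26.8 ± 4.85 against 23.0 ± 5.65 CPM (0.26, edgeR adjusted p = 0.31). Of 6810 genes tested, 33.5% were called in this comparison. The DMSO wells are technical, share plates and pooled libraries, and were each counted as a replicate. The p-values therefore describe the spread between wells of this experiment. Whether a difference by column would recur in other experiments was not tested. With ERCC scaling the differences of MALAT1 and MIR23AHG were 0.38 and 0.45 and passed the threshold, those of NEAT1 and MIR17HG were 0.21 and 0.26 and did not, and that of CCDC26 turned to -0.13. First-column wells were also shallower, and ERCC counts there were 21.8% to 37.3% of human counts, against 12.5% to 41.4% elsewhere (medians 25.7% and 19.6%). The part of depth in these differences was not tested.

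**Figure D4:**
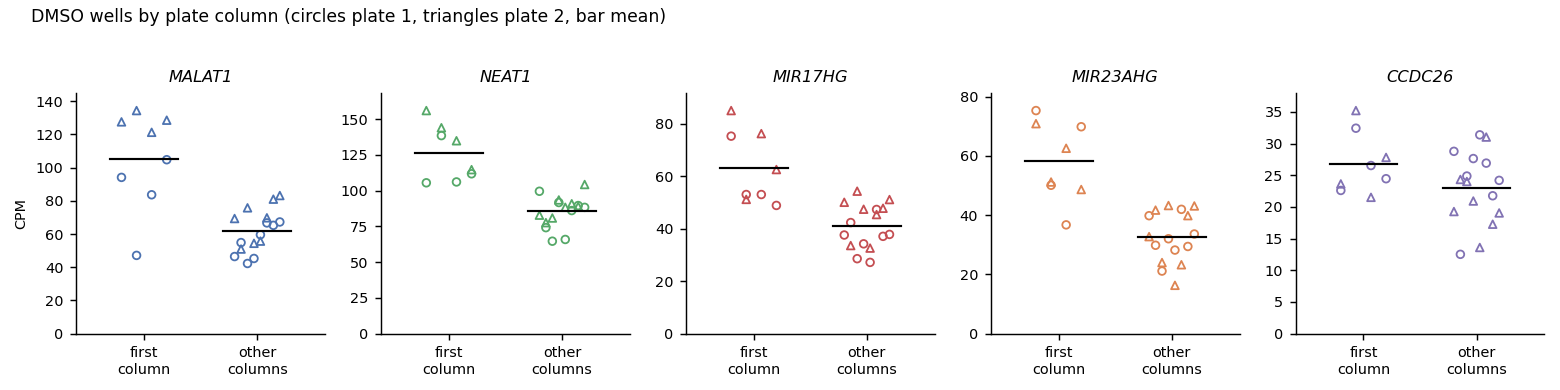
CPM of each transcript in the 8 DMSO wells of the first plate column (left in each panel) and the 16 of other columns (right), by plate, with a bar at the mean. Means are higher in the first column for all 5 transcripts, although that of CCDC26 was lower there with ERCC scaling (-0.13).

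Because first-column wells make up 8 of the 24 DMSO wells, they raise the DMSO level of MALAT1, NEAT1 and both hosts. Without any first-column well, MIR17HG was called lower in 12 treatments and NEAT1 in 6, MIR23AHG was called lower in 7 (Triptolide lost, at -1.23), and MALAT1 was called higher in 10. The share of all genes called in this setting is not given, so the counts have no background beside them. MIR17HG was then called higher in 6 treatments, among them GSK_J1 (0.86), UNC0631 (0.75), BIX_01294 (0.76), A366 (0.75) and JIB_04 (0.62), none of which was called with all wells. All 6 lay in columns 2 and 3, and the remaining 16 DMSO wells in columns 8 to 12, so compound and position cannot be told apart. The 15 treatments with all wells in columns 2 and 3 had a median log2 fold change against all DMSO wells of 0.40 for MIR17HG, 0.37 for MIR23AHG and 0.38 for MALAT1. The 31 treatments of columns 4 to 7, which also hold no DMSO wells, had -0.03, -0.18 and -0.14. MIR17HG was above 0 in all 15 treatments of columns 2 and 3 and in 15 of the 31.

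**Figure D5:**
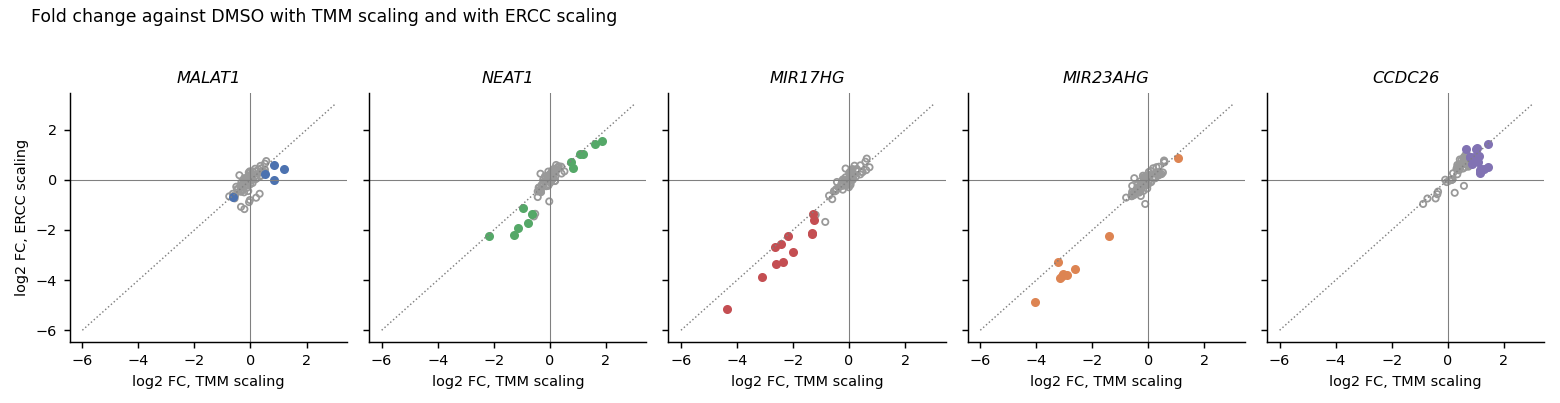
Log2 fold change against DMSO with TMM scaling (x) and with ERCC scaling (y) for each transcript in 74 treatments; filled points were called with TMM scaling and the dotted line marks equal values. Filled points of MIR17HG and MIR23AHG lie below 0 on both axes except MI-3 for MIR23AHG, and those of CCDC26 lie above 0 on both.

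Genes of paraspeckle proteins, which bind NEAT1, were counted under OTS964, AZ5576 and Panobinostat, 28 of a list of 32 being tested. Under Panobinostat 8 fell and 0 rose (28.6% and 0% of the list, against 8.18% and 10.3% of all genes), with a median log2 fold change of -0.26 against -0.01 for all genes. They include RBM7, a subunit of the nuclear exosome targeting complex (-1.91, SE 0.55), CPSF7, a subunit of the 3′ cleavage factor (-1.41, SE 0.42), HNRNPH3 (-0.73, SE 0.19) and HNRNPF (-0.65, SE 0.13), both splicing regulators. Under AZ5576 7 fell, CPSF7 (-2.21, SE 0.405), RBM7 (-1.63, SE 0.37) and RBM14 (-0.78, SE 0.19), which is needed for paraspeckle assembly, among them. RBM3, a cold-inducible RNA-binding protein, was the 1 that rose (0.51, SE 0.07), and it turned to -0.21 with ERCC scaling. The shares were 25% lower and 3.57% higher, against 28.1% and 19.2% of all genes. Under OTS964 3 fell (CPSF7 at -1.76, RBM14 at -0.91 and RBM4B at -1.56) and KHDRBS1 rose (0.49, or -0.25 with ERCC scaling), against 8.61% lower and 8.46% higher of all genes.

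Genes that process microRNAs from their hosts, 25 of 31 being tested, were counted in the same 3 comparisons. Under OTS964 5 fell and 3 rose (20% and 12%, against 8.61% and 8.46% of all genes): DDX5 and DDX17, helicases that assist DROSHA, stood at -0.61 (SE 0.16) and -1.01 (SE 0.33). SRSF3, a splicing factor that marks hairpins for cutting, stood at 0.72 (SE 0.09) and SRRT, which links the cap-binding complex to DROSHA, at 0.64 (SE 0.19), and both turned to below 0 with ERCC scaling (-0.02 and -0.14). Under AZ5576 9 fell and 2 rose (36.0% and 8.0%, against 28.1% and 19.2% of all genes), with DGCR8 at -1.72 (SE 0.30) and DDX5 at -0.53 (SE 0.10). SRSF3 and RAN, a GTPase of nuclear transport, stood at 0.54 and 0.37, and turned to -0.19 and -0.36 with ERCC scaling. Under Panobinostat 6 fell and 0 rose (24.0% and 0%, against 8.18% and 10.3% of all genes): METTL3, a subunit of the m6A methyltransferase (-1.30, SE 0.39), DGCR8 (-1.05, SE 0.33), DDX17 (-0.84, SE 0.27) and HNRNPA2B1, an RNA-binding protein (-0.37, SE 0.11), were those with the smallest p. DROSHA itself, named after its values were seen, stood at -1.65 (SE 0.70) under OTS964 and -1.18 (SE 0.50) under Panobinostat and passed the threshold in both, and at -0.55 (SE 0.30) under AZ5576, where it did not pass. List medians were -0.25, -0.28 and -0.26, against -0.09, -0.14 and -0.01 for all genes.

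Of 58 other microRNA host and long noncoding genes, 50 are in the files and 25 were tested. Under AZ5576 5 rose and 5 fell (20% each, against 19.2% and 28.1% of all genes). CYTOR (0.97, SE 0.08) and MIR4435-2HG (0.76, SE 0.06) are near-identical copies that can share reads, so their values are uncertain, and they stood at 0.22 and 0.02 with ERCC scaling. ZFAS1, a host of small nucleolar RNAs (-0.47, SE 0.07), and LINC00339 (-1.71, SE 0.47) were lower. Under OTS964 1 rose (MIR4435-2HG, 0.33, or -0.42 with ERCC scaling) and 1 fell (LINC00339, -1.97, SE 0.85), 4.00% each against 8.46% and 8.61% of all genes, while HCG18 (-0.96) and DLEU2 (0.74) missed the threshold with edgeR adjusted p of 0.0572 and 0.058. Under Panobinostat 8 fell and 2 rose (32.0% and 8.0%, against 8.18% and 10.3% of all genes). MIR210HG, the host of miR-210 (2.33, SE 0.37), and PCAT6 (1.89, SE 0.37) were those that rose, and DANCR (-0.58, SE 0.08) and DLEU1 (-0.76, SE 0.15) were among those that fell. These 3 lists hold none of the 5 transcripts.

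MYC, MYB, MAX and the E2F factors are known to bind or regulate the MIR17HG locus, and their own counts were looked up in 20 treatments. MYB fell in 16 of them, MYC fell in 12 and rose in 3, E2F1 fell in 6, E2F3 fell in 4, and MAX fell in 1 and rose in 3, while E2F2 was not among the genes tested. Of all genes, 0.0194% fell in at least 16 of the 20, 0.659% in at least 12, 8.4% in at least 6, 17.3% in at least 4 and 50.4% in at least 1, and 19.8% rose in at least 3. Under AZ5576, MYC stood at -2.82 (SE 0.24), MYB at -2.26 (SE 0.31) and E2F1 at -1.79 (SE 0.41), beside -2.60 for MIR17HG. Under OTS964, MIR17HG stood at -3.12, E2F1 at -1.78 (SE 0.66) and MYB at -0.90 (SE 0.32), and MYC was at 0.50 (SE 0.15), which turned to -0.24 with ERCC scaling. Under A485, which inhibits the acetyltransferases CBP and p300, MYC (-0.63, SE 0.12) and MYB (-0.63, SE 0.18) fell, and MIR17HG had 53.0 to 65.5 CPM in first-column wells and 39.0 and 37.6 CPM in the others, within the DMSO ranges of those columns.

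Nearest tested genes on either side were followed in the same 20 treatments. Next to MIR23AHG, CC2D1A fell in 8 and DCAF15 in 6 beyond it, with -1.99 (SE 0.42) and -1.06 (SE 0.27) under AZ5576, while C19orf53 on the other side rose in 7 and fell in 1. Of all genes, 3.99% fell in at least 8 of the 20 and 8.4% in at least 6, and 5.52% rose in at least 7. C19orf53 stood at 0.34 (SE 0.0525) under AZ5576 and turned to -0.41 with ERCC scaling. Next to MIR17HG, the pseudogene PTMAP5, whose reads may come from copies, rose in 8 (0.59, SE 0.09, under AZ5576, or -0.14 with ERCC scaling), as 3.86% of all genes did in at least as many. TGDS, on the other side, fell in 2 (AZ5576, at -2.16, SE 0.79, and OTS964), as 33.4% of all genes did in at least as many. NDFIP2 and the pseudogene RPL21P112, beyond them, were called in none of the 20, at -0.08 (SE 0.215) and 0.38 (SE 0.18) under AZ5576. Next to CCDC26, PVT1, a long noncoding gene beside MYC, rose in 11 and fell in 0 (0.446% of all genes rose in at least 11), with 0.85 (SE 0.07) under AZ5576 and 0.85 (SE 0.07) under ActD. With ERCC scaling PVT1 stood at 0.13 under AZ5576 and turned to -0.04 under ActD. CYRIB, on the other side of CCDC26, rose in 4 (13.6% in at least as many), okadaic acid giving 0.77 (SE 0.13). Further out, neighbours went the other way: MYC, past PVT1, fell in 12 and rose in 3, and ASAP1, past CYRIB, fell in 2 and rose in 0. Of all genes, 0.659% fell in at least 12 and 33.4% in at least 2, and 19.8% rose in at least 3. Between NEAT1 and MALAT1 lies FAUP4, a pseudogene whose reads may come from copies, and it was called higher in 6 treatments (7.54% in at least as many) and lower in 1, with 2.18 (SE 0.19) under Quisinostat and 1.99 (SE 0.21) under Panobinostat.

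Among all tested genes, that whose level over the 75 conditions was most like that of MIR17HG was MIR142HG, the host of miR-142 (Pearson 0.913, Spearman 0.829, and 0.95 with ERCC scaling). NR2F6, MTLN, LINC01311 and UFSP1 followed at 0.852 to 0.855. Among genes with a symbol, the highest for MIR23AHG were RASSF7 (0.889), IMP3 (0.846) and SNHG7 (0.845), and for NEAT1 CSKMT (0.836), RSRP1 (0.767) and PLXNA3 (0.751). SRRT, of the processing list above, was highest for MALAT1 (0.775), and HEMGN for CCDC26 (0.696). These are correlations over conditions that share plates, pooled libraries and depth, and most conditions lie close together. Among the 5 transcripts, NEAT1 and MIR23AHG had a Pearson correlation of 0.605 (0.788 with ERCC scaling) and NEAT1 and CCDC26 of -0.49 (-0.03 with ERCC scaling). That of MALAT1 and MIR17HG was 0.04, but the Spearman correlation was 0.405 and the Pearson correlation 0.574 with ERCC scaling.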

How the data were processed

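MAC-seq libraries of 2 plates, 96 wells each, were analysed. The authors' tools, as listed in the submitters' notes on processing, include cutadapt 2.1, FastQC 0.11.6, R 4.0.2 and bcl2fastq 2.17.1.14, with build GRCh37 (hg19). For the aligner, the counter and the gene models, the sources used here give no name. The deposited tables hold estimated counts per gene and well that the authors had neither normalized nor pooled, per the labels. Values on the 57905 gene lines and 92 ERCC lines were all whole, and 6 summary lines at the end were dropped. The counts are reads: the deposited ratio of reads to unique molecular identifiers was 1.63 to 3.53 per well, so copies count more than once. The share of reads on lines without a gene was not used. Wells were assigned to compounds by the deposited annotation.

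Human genes were kept with filterByExpr (10312 genes) and fitted with edgeR 4.0.16 in R 4.3.3, with TMM factors, a term per treatment and a plate term (the plate is the replicate number of the labels), over all 192 wells. Each of 74 treatments was compared with 24 DMSO wells by the quasi-likelihood test, with Benjamini-Hochberg adjustment over all genes of a comparison and a threshold of 0.05. The fit used a faster solver of the same likelihood, which made the same number of calls as edgeR on 300 genes in each of 3 comparisons. SE is a Wald standard error. CPM is scaled to the TMM-adjusted human counts of the well. Levels over conditions are log2 CPM with a prior count of 2 and plate means removed. On simulated counts of 10312 genes, a comparison built like that of OTS964 recovered 40% of 2-fold and 78% of 4-fold changes and made 2 false calls. An unchanged comparison built like that of DRB made 0. The simulated wells had no plate or column effect, and 10112 of the 10312 genes were unchanged under OTS964. These false calls therefore do not cover differences by well position or changes in many genes at once. Intervals of low totals are exact binomial intervals that treat each read as independent, and they cover counting error of reads only. Because copies count more than once, they are likely too narrow for numbers of molecules.

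The 5 transcripts, the gene lists and the tests were chosen with earlier results of these data known. Treatments named are 20 main ones and the 5 highest and 5 lowest per transcript, genes most like a transcript are the 5 with the highest Pearson correlation, neighbours are the nearest 2 tested genes per side in RefSeq order, and list genes named are the 4 with the smallest p. Alternatives were RLE factors, library size alone, ERCC scaling, no filter, DESeq2 1.42.0, limma-voom (limma 3.58.1), no plate term, each plate left out, first-column DMSO wells left out, and the mean of all treatments as the baseline. Leaving out all first-column wells was added after seeing the data. Of the gene lines, 51996 matched a symbol by Ensembl identifier. Because the files use GRCh37 and the RefSeq tables GRCh38.p14, no position of a gene in the files is given and RefSeq was used for sequences, names and gene order only. Some marker and neighbouring genes are not reported here.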

Additional observations from a re-analysis of the deposited data

How the results depend on the processing

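Of the 44 named calls, 43 kept their direction and stayed called with DESeq2, 44 with RLE factors, 44 without the low-count filter, 42 with library size alone, 40 with limma-voom, 34 with ERCC scaling, 36 against the mean of all treatments, 42 without first-column DMSO wells and 41 without all first-column wells, a setting chosen after seeing the data. None reversed under any alternative run. With a single plate, 29 were kept without replicate 1 and 23 without replicate 2, where most treatments have 1 well that is assumed to vary like the others.

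Without the plate term, that is with no replicate block, 40 were kept, and MALAT1 was called higher in 2 treatments and lower in 0, while other counts stayed within 1.5 times. Plates pair wells because the labels number them as replicates.

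MALAT1 was called higher in 4 treatments, against 2 with library size, 0 with ERCC, 9 without first-column DMSO wells, 10 without all first-column wells and 0 to 1 without a plate. It was called lower in 1, against 2 with RLE or DESeq2, 3 with library size or no filter, 6 with ERCC, and 0 with voom, without first-column wells of DMSO or of all groups, or without either plate (0 to 0). NEAT1 was called lower in 10 with ERCC and 2 to 4 without a plate. MIR17HG was called higher in 1 with ERCC, DESeq2 or voom, 5 without first-column DMSO wells, 7 against the mean of treatments and 6 without all first-column wells, and lower in 7 against the mean and 7 to 7 without a plate. MIR23AHG was called higher in 0 with ERCC and 0 to 0 without a plate, 2 without first-column DMSO or all first-column wells, and 7 against the mean. For both hosts that mean includes the treatments in which they fell most. CCDC26 was called higher in 6 to 6 without a plate and 5 against the mean, and lower in 1 with library size or ERCC and 5 against the mean.

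Paraspeckle genes under OTS964 were higher in 0 with every setting except voom and no plate term (0 to 0 without a plate), and lower in 5 with library size, 20 with ERCC, 1 with voom, 0 against the mean and 0 to 0 without a plate. Under AZ5576 they were higher in 0 with ERCC, and lower in 18 with library size, 27 with ERCC, 4 against the mean and 3 to 5 without a plate. Under Panobinostat they were lower in 4 without the filter or against the mean and 1 to 3 without a plate.

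MicroRNA processing genes under OTS964 were higher in 1 with library size or DESeq2, 0 with ERCC, 5 with voom and 1 to 1 without a plate, and lower in 8 with library size, 17 with ERCC, 3 without the filter or with voom, 1 against the mean and 0 to 0 without a plate. Under AZ5576 they were higher in 1 with library size and 0 with ERCC, and lower in 15 with library size, 23 with ERCC, 4 against the mean and 3 to 6 without a plate. Under Panobinostat they were higher in 1 with voom, without first-column DMSO wells or without all first-column wells, and lower in 3 against the mean and 0 to 1 without a plate.

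Other host and long noncoding genes under OTS964 were higher in 0 with RLE, library size, ERCC, no filter or DESeq2, 2 with voom and 0 to 0 without a plate, and lower in 2 with RLE, 6 with library size, 15 with ERCC, 0 without the filter, with DESeq2 or voom or against the mean, and 0 to 0 without a plate. Under AZ5576 they were higher in 3 with RLE, no filter or DESeq2, 2 with library size, 0 with ERCC and 3 to 3 without a plate, and lower in 14 with library size, 20 with ERCC and 3 to 5 without a plate. Under Panobinostat they were higher in 1 to 1 and lower in 1 to 2 without a plate. For these counts and those above, the cause was not tested, and the share of all genes called in each alternative setting is not given. The single-plate settings use fewer wells.

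Between DMSO wells by position, the differences of NEAT1 and MIR17HG were 0.21 and 0.26 with ERCC scaling and no longer called. Host levels below about 10 CPM rest on a few counts per well, duplicates are technical, and doses are not given.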

Other observations

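BIX_01294, A366 and UNC0631, inhibitors of the histone methyltransferase G9a, stood among the 5 highest treatments for MIR17HG and were singled out after their values were seen. All 5 of those treatments lay in plate columns 2 and 3, next to the first column and without DMSO wells, so compound class and position cannot be told apart. MIR17HG had 79.8 and 58.2 CPM under BIX_01294, 57.6 and 78.4 CPM under A366 and 71.3 and 65.9 CPM under UNC0631, against 27.2 to 85.1 CPM in DMSO wells. The log2 fold changes against DMSO were 0.63, 0.58 and 0.61 and were not called. Against the mean of all treatments they were 1.02, 0.97 and 1.00, and those of MIR23AHG were 0.94, 0.95 and 0.90, all called. That mean lies below DMSO for both hosts, because it includes the treatments in which they fell most. Against DMSO the lowest values were -4.34 for MIR17HG and -4.06 for MIR23AHG, while the medians over treatments were -0.05 and -0.145. BRD4770, another compound of this class, had 56.3 and 49.0 CPM of MIR17HG and was not called, at 0.24 against DMSO.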
